A study of Mus musculus with 12 samples.

Results

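The 8 genes described here encode transcription factors and a cofactor that act in undifferentiated or differentiating spermatogonia. They are Sohlh1, Sohlh2, Dmrt1, Dmrtb1, Neurog3, Sox3, Taf4b and Sall1. They were taken by gene symbol from a table of 55385 mouse genes, and each symbol matched 1 row. All 8 passed the filter on low values in every comparison. RNA was sequenced from 12 libraries of sorted spermatogonia in 6 groups of 2. WT Aundiff (undifferentiated) and WT Adiff (differentiating) spermatogonia came from untreated adult C57BL/6 mice. Aundiff were sorted as E-Cadherin+ CD9high KIT- cells and Adiff as E-Cadherin+ CD9medium KIT+ cells, so Kit, Cdh1 and Cd9 were used for the sort. The other 4 groups are Aundiff of mice on a C57BL/6 X FVB/NJ background that lack Ring1 in every cell. PRC1cKO mice were Ring1-/-; Rnf2 F/-; Ddx4-Cre, and their PRC1ctrl littermates were Ring1-/-; Rnf2 F/+; Ddx4-Cre. Ddx4-Cre acts in germ cells. RING1 and RNF2 are the alternative catalytic subunits of Polycomb repressive complex 1 (PRC1), so the controls keep a copy of Rnf2 but no Ring1. A pair of groups (2 mo) was untreated and sorted at 2 months of age. The other pair (Win) received daily injections of Win18446, an inhibitor of retinoic acid synthesis, from 1 month of age until maturity. Sorted cells were pooled for each library, and the methods describe the 2 libraries of a group as biological replicates, without giving the number of animals in each pool.

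The genes lie on 8 different chromosomes of GRCm38. Sohlh1 (ENSMUSG00000059625) spans chr2:25842995-25847248 on the minus strand, and Sohlh2 (ENSMUSG00000027794) spans chr3:55182028-55209957 on the plus strand. Dmrt1 (ENSMUSG00000024837) spans chr19:25505618-25604329 on the plus strand, and Dmrtb1 (ENSMUSG00000028610) spans chr4:107676290-107684230 on the minus strand. Neurog3 (ENSMUSG00000044312) spans chr10:62133090-62134763 on the plus strand, and Sox3 (ENSMUSG00000045179) spans chrX:60891366-60893430 on the minus strand. Taf4b (ENSMUSG00000054321) spans chr18:14783245-14900359 on the plus strand, and Sall1 (ENSMUSG00000031665) spans chr8:89027235-89044162 on the minus strand. Of the exonic bases of Neurog3, 16.3% overlap Fam241b on the opposite strand, and the 2 mo libraries were made with a kit that does not keep strand. The other 7 genes share no exonic base with another gene.

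SOHLH1 and SOHLH2 are germ cell-specific basic helix-loop-helix (bHLH) factors needed for spermatogonial differentiation. Factors of this class bind short sequences called E-boxes (CANNTG). DMRT1 carries a DM-type zinc finger and in spermatogonia restrains the response to retinoic acid and entry into meiosis, and DMRTB1 (also called DMRT6) is its relative in differentiating spermatogonia. NEUROG3, another bHLH factor, and SOX3, an HMG-box factor, mark the progenitor end of the undifferentiated pool, from which cells move on to differentiation. SALL1 is a zinc finger relative of SALL4, a factor that spermatogonia require. TAF4B is a germ cell-enriched form of the TFIID subunit TAF4 and supports the long-term maintenance of spermatogenesis. Retinoic acid is the signal that drives Aundiff into Adiff, with induction of Stra8 and Kit.

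RefSeq promoters were matched for 5 of the 8 genes, among them all 4 called in WT below, and not for Dmrt1, Sox3 and Taf4b. The 250 bases upstream of each annotated start are printed 5′ to 3′ with E-boxes (CANNTG, which reads as CANNTG on both strands) in capitals, because 3 of these genes encode bHLH factors. They are chr2:25847249-25847498 (minus strand) for Sohlh1, chr3:55181794-55182043 (plus) for Sohlh2, chr4:107684231-107684480 (minus) for Dmrtb1, chr10:62132840-62133089 (plus) for Neurog3 and chr8:89044163-89044412 (minus) for Sall1, on GRCm38.p6.
Sohlh1: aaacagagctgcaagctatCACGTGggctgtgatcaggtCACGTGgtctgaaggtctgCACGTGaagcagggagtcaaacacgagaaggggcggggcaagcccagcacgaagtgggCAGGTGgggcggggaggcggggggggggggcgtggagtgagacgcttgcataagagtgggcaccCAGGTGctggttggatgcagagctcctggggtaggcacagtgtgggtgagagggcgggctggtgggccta
Sohlh2: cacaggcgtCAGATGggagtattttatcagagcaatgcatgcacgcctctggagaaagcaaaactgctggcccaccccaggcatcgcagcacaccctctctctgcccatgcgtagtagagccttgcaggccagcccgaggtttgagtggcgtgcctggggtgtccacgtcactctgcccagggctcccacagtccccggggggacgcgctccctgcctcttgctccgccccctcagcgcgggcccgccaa
Dmrtb1: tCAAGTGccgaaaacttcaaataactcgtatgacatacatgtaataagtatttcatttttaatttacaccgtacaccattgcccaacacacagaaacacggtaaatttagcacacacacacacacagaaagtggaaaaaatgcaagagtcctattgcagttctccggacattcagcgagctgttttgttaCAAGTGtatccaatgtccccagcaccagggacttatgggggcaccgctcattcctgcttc
Neurog3: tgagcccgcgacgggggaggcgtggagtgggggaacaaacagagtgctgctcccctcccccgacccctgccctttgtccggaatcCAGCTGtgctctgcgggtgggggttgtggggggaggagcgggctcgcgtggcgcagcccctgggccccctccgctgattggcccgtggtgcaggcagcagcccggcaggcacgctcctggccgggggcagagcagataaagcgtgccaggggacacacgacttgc
Sall1: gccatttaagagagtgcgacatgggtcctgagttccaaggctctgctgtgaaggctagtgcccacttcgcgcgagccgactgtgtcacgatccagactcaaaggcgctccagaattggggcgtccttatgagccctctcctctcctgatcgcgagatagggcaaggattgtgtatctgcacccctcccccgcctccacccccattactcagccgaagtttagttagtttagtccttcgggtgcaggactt
The Sohlh1 window held 5 E-boxes, and 3 of them were the palindrome CACGTG, at 231, 211 and 192 bases upstream of the start. The other 2 were CAGGTG, at 134 and 70 bases upstream. Of all 32851 RefSeq mouse promoters cut to the same length, 66.2% held at least 1 E-box, 1.15% held 5 or more, 6.02% held a CACGTG and 0.0609% held 3 or more CACGTG. The Sohlh2 window held a single E-box at 241 bases, that of Neurog3 a single one at 165 bases, and that of Dmrtb1 2 at 249 and 60 bases. The letters CANNTG did not occur in the Sall1 window. AGGTCA, the half-site letters of retinoic acid and other nuclear receptors, was found on either strand in the Sohlh1 window and in 14.0% of all windows. TATAAA was found in none of the 5 and in 12.4% of all. CpG counts were 11 in Sohlh1, 14 in Sohlh2, 7 in Dmrtb1, 18 in Neurog3 and 13 in Sall1, against a median of 6 over all windows. In the same order, 64.4%, 70.6%, 53.7%, 78.3% and 68.5% of all windows held fewer CpG. A match of letters is a description and does not show that a factor binds there.

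Levels were given by the authors in TPM, the share of a library's transcripts, corrected for their length. This lets levels of different genes be set side by side, except that levels at 2 mo also went with transcript GC (below). The depth and counting error of a value are unknown. In bulk samples fewer cells of a type and less RNA per cell cannot be told apart. The WT and Win libraries were made from 100000 to 150000 cells with a stranded poly(A) kit (TruSeq), and the 2 mo libraries from about 7000 cells by the Smart-Seq2 chemistry. Genes at 1 TPM or more numbered 14796 to 15020 in WT, 15098 to 16599 in Win and 12422 to 13986 at 2 mo. Ring1 was at 0.03 to 0.25 TPM in the 8 libraries of the PRC1 mice and at 8.61 to 19.90 TPM in WT. Rnf2 was not lower under the label PRC1cKO: it was at 28.26 and 47.63 TPM in PRC1ctrl and 56.73 and 67.48 TPM in PRC1cKO at 2 mo, and at 78.09 and 67.16 TPM against 86.17 and 93.14 TPM in Win. Transcripts that carry the floxed exons and those that lack them are summed in 1 value for the gene, so this value cannot check the deletion, and groups are named by the labels of their libraries.

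Markers of other cells moved with the label, and their part in the results below was not tested. The summed TPM of 8 spermatid markers was 1069 and 2183 in libraries labelled PRC1ctrl and 65.4 and 59.2 in those labelled PRC1cKO at 2 mo. In Win it was 141 and 129 against 25.8 and 23.5, with Prm2 and Ms4a5 at 0 in both PRC1cKO libraries, and in WT it was between 547 and 880. The 6 Leydig cell markers summed to 1.04 and 1.21 in PRC1ctrl and 20.98 and 48.01 in PRC1cKO at 2 mo, but to 397 and 82.1 in PRC1ctrl and 73.2 and 20.6 in PRC1cKO in Win. Sertoli cell markers, which matter for Dmrt1 because Sertoli cells express it too, summed to 14.6 to 65.0 over all 12 libraries. The 8 germ cell markers summed to 1392 to 2165 in the 4 libraries of 2 mo and to 3242 to 3829 in the other 8. Of these markers, Ddx4 and Dazl were between 171 and 307 TPM and between 282 and 769 TPM over the 12 libraries. Uchl1 was at 277 to 378 TPM at 2 mo and at 1402 to 2299 TPM in WT and Win. Zbtb16 (PLZF) marks undifferentiated spermatogonia, and Cdh1 encodes E-Cadherin, for which both Aundiff and Adiff were sorted. They were at 131 to 216 and 16.8 to 28.0 TPM in WT Aundiff and PRC1ctrl Win. In PRC1cKO Win, Zbtb16 was at 99.1 and 129 TPM and Cdh1 at 26.9 and 30.9 TPM. In the 4 libraries of 2 mo they were at 4.93 to 14.2 and 1.49 to 3.72 TPM. Tex101 and Mael were also lower at 2 mo than in WT and Win. Cd9, which was used for the sort, went the other way. It was at 212 to 355 TPM at 2 mo, 122 to 174 TPM in WT Aundiff and Win, and 72.45 and 71.53 TPM in WT Adiff. Levels at 2 mo also went with transcript GC (below).

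In WT Aundiff the genes ranged from Dmrtb1 at 7.26 ± 1.42 TPM (SD, n = 2) to Dmrt1 at 347 ± 15.3 TPM (SD, n = 2). Dmrt1 was the highest of the 8 in 11 of the 12 libraries, the exception being Win PRC1ctrl replicate 1, where Sohlh1 was higher. These ranks are by TPM as given, and levels at 2 mo also went with transcript GC (below). The summed TPM of the 8 genes was 119 to 328 in the 4 libraries of 2 mo and 874 to 1418 in the other 8 libraries. The order of the 6 groups by mean level differed between the genes. Sohlh1 was highest in the Win groups (385 and 379 TPM, which overlapped), next in WT Aundiff and WT Adiff (254 and 217 TPM, which also overlapped) and lowest at 2 mo (61.4 TPM in PRC1cKO and 35.3 TPM in PRC1ctrl, overlapping). Sohlh2, Dmrt1 and Dmrtb1 were each highest in WT Adiff, and in each the libraries labelled PRC1cKO in Win came next. Neurog3, Sall1, Sox3 and Taf4b were each highest in PRC1ctrl Win. For Sall1 that group (33.4 TPM) overlapped with WT Aundiff (26.1 TPM), and for Sox3 the 4 groups of WT and Win overlapped from each to the next, with both groups of 2 mo far below them.

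**Figure D1:**
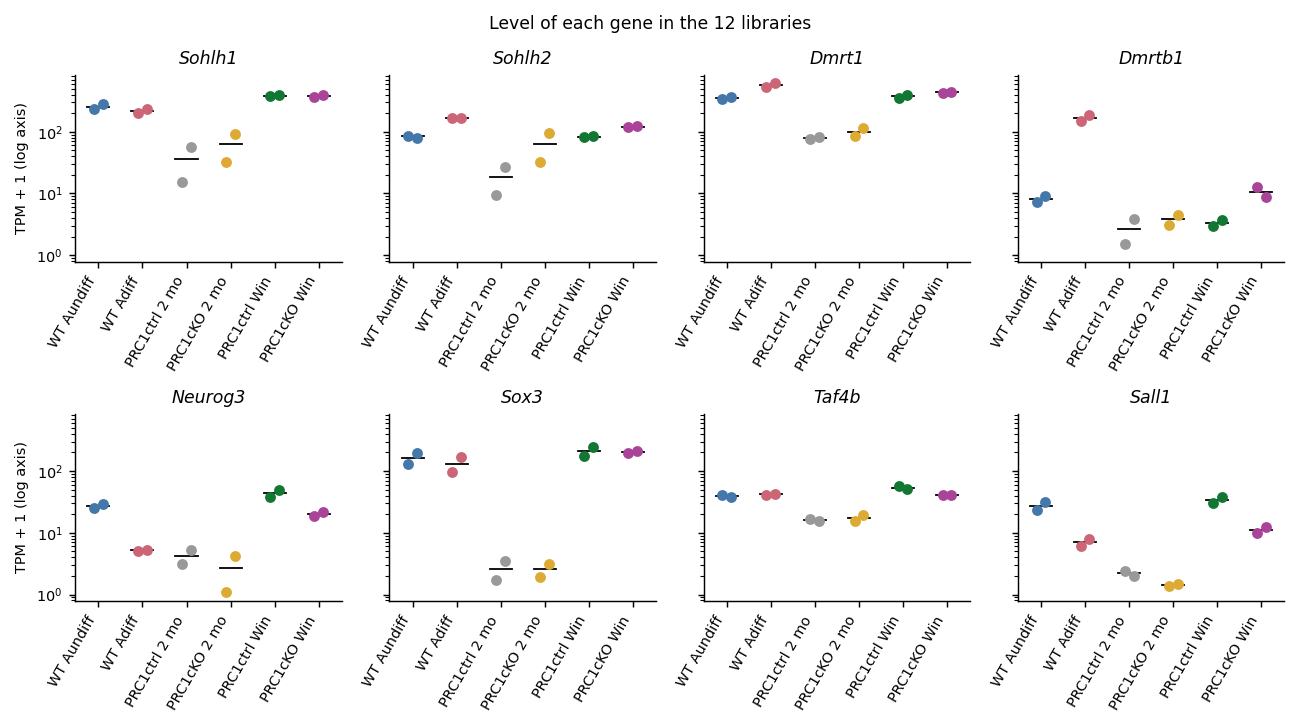
TPM + 1 on a log axis for each of the 8 genes in the 12 libraries, in 6 groups of 2. Points are libraries and lines are group means. Dmrtb1 stands at 147 and 182 TPM in WT Adiff and at most 11.75 TPM elsewhere, and Sox3 stands at 0.74 to 2.50 TPM in the 4 libraries of 2 mo and at 95.2 TPM or more in the other 8.

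The low values at 2 mo went together with the base composition of the transcripts. Protein-coding genes were divided by the GC content of the longest transcript into 5 GC classes of 2029 genes each. In the class with the lowest GC, the median gene of the 2 mo libraries was 0.42 to 0.71 higher than in WT Aundiff on the log2(TPM + 1) scale. In the class with the highest GC, the median difference was between -2.19 and -3.19. In the other 8 libraries these medians stayed between -0.12 and 0.44. Sox3 has a transcript GC of 66.4%, higher than 99.6% of protein-coding genes. Its log2 level in PRC1ctrl at 2 mo differed from that in WT Aundiff by -6.03, and 0.936% of the genes in its GC class lay lower still. Sall1 (51.6% GC) differed by -3.61, with 14.6% of its class lower still. The differences were -3.09 for Sohlh1 (58.1% GC), -2.73 for Neurog3 (57.3%), -2.39 for Sohlh2 (48.3%), -2.13 for Dmrt1 (52.9%) and -1.77 for Dmrtb1 (59.3%), and smallest for Taf4b (45.7%). For these 6 genes, between 24.0% and 76.1% of the class lay lower still. Strain, Ring1 genotype, number of cells and library method differ together between PRC1ctrl at 2 mo and WT Aundiff. The Win groups share strain and Ring1 genotype with 2 mo, and number of cells and library method with WT. Their medians in the class with the highest GC were -0.01 to 0.31. The Win mice were also treated, and the part of each of these factors was not tested. Levels are therefore tested only between groups made by the same method.

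**Figure D2:**
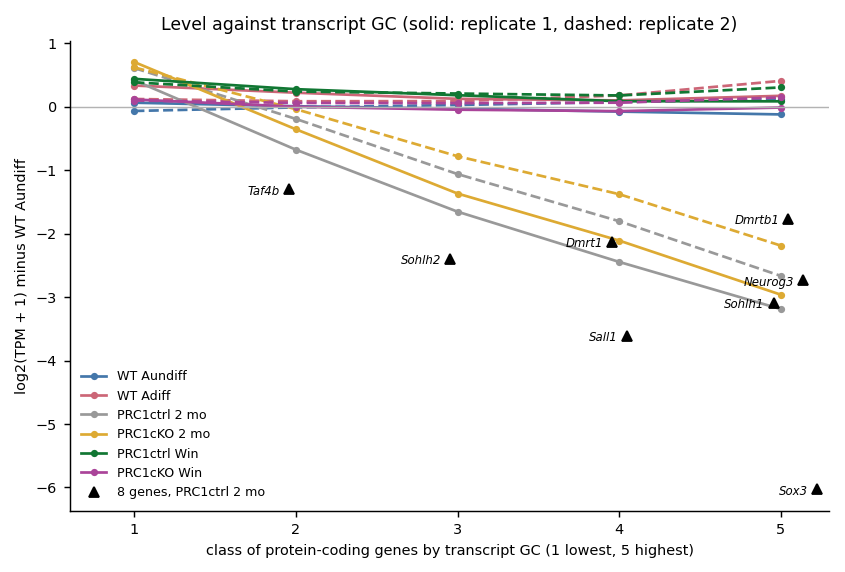
Median difference in log2(TPM + 1) from the mean of WT Aundiff (vertical axis) in each of 5 classes of protein-coding genes by transcript GC (horizontal axis), with a line for each of the 12 libraries. Triangles mark the 8 genes as PRC1ctrl at 2 mo minus WT Aundiff. The 4 lines of 2 mo slope down to between -2.19 and -3.19 in the highest class, the other 8 stay between -0.12 and 0.44, and Sox3 lies farthest below, at -6.03.

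WT Adiff were compared with WT Aundiff to ask how these factors change as spermatogonia differentiate without any mutation. Dmrtb1 and Sohlh2 rose and Neurog3 and Sall1 fell. Sohlh1, Sox3, Taf4b and Dmrt1 did not pass both thresholds. A gene was called with limma on log2(TPM + 1) at an adjusted p (Benjamini-Hochberg over 15470 genes) below 0.05 and a log2 fold change beyond 1 in either direction. By this rule 4 of the 8 genes were called, 2 higher and 2 lower, against 20.4% of all genes tested (11.1% higher and 9.24% lower). The median log2 fold change was -0.06 over the 8 genes and 0.15 over all genes, and the latter moved to -0.0066 after median-of-ratios scaling and 0.043 after quantile normalization. The 2 groups did not overlap in 6 of the 8, against 72.1% of all genes. With 2 libraries against 2, an exact permutation test of 1 gene cannot go below a p of 0.33, so all p-values are those of the moderated fit.

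Among the bHLH pair, Sohlh2 was at 85.82 and 79.54 TPM in Aundiff and at 168.84 and 166.54 TPM in Adiff. Every Adiff library was above every Aundiff library, with a log2 fold change of 1.01 ± 0.12 (SE; adjusted p = 0.00255, limma). This lies at the fold threshold: it was 0.84 after median-of-ratios scaling, 0.80 after quantile normalization and 0.96 without WT Aundiff replicate 2, all with an adjusted p under 0.05. In a fit over all 12 libraries it stayed at 1.01, but the call was lost on p (adjusted p = 0.216, limma). Sohlh1 was at 230.95 and 276.73 TPM in Aundiff and at 199.61 and 235.25 TPM in Adiff. These ranges overlapped, and the log2 difference was -0.22 ± 0.15 (SE; adjusted p = 0.275, limma).

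Among the DM-domain pair, Dmrtb1 was at 6.25 and 8.26 TPM in Aundiff and at 147.45 and 182.21 TPM in Adiff. It had the largest change of the 8 genes, with a log2 fold change of 4.33 ± 0.19 (SE; adjusted p = 0.000221, limma). Dmrt1 was at 336.26 and 357.94 TPM in Aundiff and at 520.12 and 613.46 TPM in Adiff. The groups did not overlap, and the log2 difference of 0.70 ± 0.13 (SE) passed the p threshold (adjusted p = 0.00846, limma) but not that on fold.

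Among the factors of progenitors, Neurog3 was at 23.86 and 28.12 TPM in Aundiff and at 4.12 and 4.30 TPM in Adiff, a log2 fold change of -2.37 ± 0.19 (SE; adjusted p = 0.00118, limma). Sox3 was at 128.88 and 198.28 TPM in Aundiff and at 95.17 and 166.62 TPM in Adiff, ranges that overlapped (log2 difference -0.34 ± 0.33, SE; adjusted p = 0.452, limma). The replicates of Sox3 thus lay farther apart than the group means. Sall1 was at 22.17 and 29.96 TPM in Aundiff and at 5.20 and 7.05 TPM in Adiff, a log2 fold change of -1.92 ± 0.24 (SE; adjusted p = 0.00265, limma). Taf4b was at 39.62 and 37.16 TPM in Aundiff and at 40.19 and 42.20 TPM in Adiff. The groups did not overlap, but the log2 difference of 0.10 ± 0.14 (SE; adjusted p = 0.610, limma) was smaller than its error, and its sign turned to -0.07 and -0.10 under the other 2 scalings.

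Around these genes, 8 of 13 other transcription factors of undifferentiated spermatogonia fell in Adiff, none rose, and their median log2 fold change was -1.52. They included Etv5, a target of GDNF signalling (57.26 and 58.74 against 2.62 and 2.77 TPM), Foxc2 (-3.44), the HLH inhibitor Id4 (-2.65) and Pou5f1 (-2.27), with log2 fold changes in parentheses. Of 10 genes of differentiation, 7 rose and none fell, with a median of 1.89, led by Kit (5.01), Stra8 (3.38), Tcea3 (3.01) and Esx1 (2.70). Over all genes tested, 11.1% were called higher and 9.24% lower. Kit belongs to the sort gate, so its change describes the gate.

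The relatives of the 8 genes changed in both directions, beside 11.1% of all genes called higher and 9.24% called lower. In the SOX family of 11 tested genes, Sox12 (1.79), Sox15 (1.55) and Sox11 (1.03) rose and Sox13 fell (-3.17, from 79.60 and 96.51 to 7.66 and 10.23 TPM). Of 8 other DM-domain genes Dmrt2 fell (-1.57, from 5.26 and 5.98 to 1.07 and 1.40 TPM), and of the other SALL genes Sall3 fell (-1.42) from 2.35 TPM in each library while Sall4 was not called (-0.44, adjusted p = 0.0882, limma). Among 17 TFIID subunits, Taf10 (1.68), Taf4 (1.23) and Taf13 (1.10) rose, none fell, and the median was 0.35. Taf4, the widely expressed counterpart of Taf4b, was at 4.68 and 8.33 TPM in Aundiff and at 16.84 and 15.34 TPM in Adiff (adjusted p = 0.0167, limma). Of 13 bHLH partners and inhibitors, Id1 (2.04), Ascl2 (1.80), Id2 (1.74) and Bhlhe40 (1.04) rose and Id4 fell. Under median-of-ratios scaling Sox11, Taf13 and Bhlhe40 kept their sign but dropped under the fold threshold, and under quantile normalization Taf13 did.

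PRC1cKO and PRC1ctrl at 2 mo were compared to ask what loss of PRC1 does to Aundiff in the untreated testis. None of the 8 genes was called by limma, against 2.16% of 13953 genes tested (0.222% higher and 1.94% lower). None had an unadjusted p under 0.05 either, against 1985 genes (14.2%) over all. The groups did not overlap for Sohlh2, Dmrt1 and Sall1, 3 of 8, against 44.8% of all genes. For Sall1 this follows from the filter, which it passed only through PRC1ctrl. The median log2 difference was 0.22 over the 8 genes and 0.22 over all genes, which became -0.038 and 0.11 over all genes under the same scalings. The standard errors at 2 mo (median over all genes 0.42) were wider than in WT (0.22) or Win (0.17).

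Sohlh2 was at 8.39 and 25.93 TPM in PRC1ctrl and at 31.14 and 93.85 TPM in PRC1cKO. Each PRC1cKO library was above each PRC1ctrl library, but the replicates under each label lay far apart, and the log2 difference was 1.80 ± 0.73 (SE; adjusted p = 0.356, limma). Leaving out 1 library moved it to between 1.02 (without PRC1cKO replicate 2) and 2.58 (without PRC1cKO replicate 1), and it was 1.04 and 2.56 without PRC1ctrl replicates 1 and 2. Sohlh1 was at 14.61 and 55.94 TPM against 31.35 and 91.46 TPM, which overlapped (0.88 ± 0.78, SE; adjusted p = 0.659, limma). Without PRC1ctrl replicate 1 the Sohlh1 difference turned to -0.06. In both genes and under both labels replicate 2 was higher than replicate 1, and the slope of level on transcript GC was likewise less steep in replicate 2 (its part in these differences was not tested).

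Dmrt1 was at 75.96 and 80.98 TPM in PRC1ctrl and at 84.47 and 114.82 TPM in PRC1cKO, a log2 difference of 0.32 ± 0.28 (SE; adjusted p = 0.654, limma). Dmrtb1 was at 0.51 and 2.84 TPM against 2.10 and 3.54 TPM, Neurog3 at 2.15 and 4.19 TPM against 0.08 and 3.21 TPM, and Sox3 at 0.74 and 2.50 TPM against 0.93 and 2.16 TPM. All 3 were near or under the level at which the added 1 TPM compresses a fold change, their ranges overlapped, and their adjusted p-values were 0.662, 0.629 and 1.00 (limma). Taf4b was at 15.56 and 14.46 TPM against 14.70 and 18.29 TPM (0.12 ± 0.36, SE; adjusted p = 0.898, limma). Sall1 was at 1.41 and 1.00 TPM in PRC1ctrl and at 0.38 and 0.49 TPM in PRC1cKO. Both PRC1cKO libraries were lower, with a log2 difference of -0.61 ± 0.31 (SE; adjusted p = 0.455, limma), at levels where counting error is unknown. Sall1 passed the filter on low values here only through the PRC1ctrl libraries, so this lack of overlap follows from the filter. After median-of-ratios scaling, or without either PRC1ctrl library, Sall1 did not pass the filter and was not tested.

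Of the lists of undifferentiated and differentiation genes, families and partners, none had a called gene at 2 mo by limma. At an unadjusted p under 0.05 there were 5 of 8 tested genes of differentiation, 1 of 11 factors of undifferentiated spermatogonia and 2 of 12 bHLH partners. The share over all genes was 14.2%. The median log2 difference of 8 tested genes of differentiation was 0.97 and that of 11 factors of undifferentiated spermatogonia was -0.11, against 0.22 over all genes. Kit was at 1.64 and 3.30 TPM in PRC1ctrl and at 10.72 and 14.91 TPM in PRC1cKO (2.02, adjusted p = 0.113, limma), and Sall4 at 517 and 704 TPM against 266 and 314 TPM (-1.06, adjusted p = 0.118, limma). The lists of 4 DM-domain genes, 6 SOX genes, 17 TFIID subunits and 12 bHLH partners had medians of 0.83, -0.38, 0.23 and 0.57, and 1, 1 and 0 genes of the first 3 had an unadjusted p under 0.05.

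The same labels were compared after Win18446, where retinoic acid synthesis was inhibited under both labels. Dmrtb1 rose and Sall1 and Neurog3 fell in the libraries labelled PRC1cKO. Sohlh2, Dmrt1, Taf4b, Sohlh1 and Sox3 did not pass both thresholds. The 3 called genes, 1 higher and 2 lower, stand against 12.2% of 16521 genes called (1.27% higher and 10.9% lower). The groups did not overlap in 6 of the 8 genes, against 69.4% of all genes. The median log2 fold change was -0.03 over the 8 genes and -0.19 over all genes, and the latter moved to 0.03 and 0.04 under median-of-ratios scaling and quantile normalization, so small differences depend on the scale.

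Dmrtb1 was at 1.99 and 2.68 TPM in PRC1ctrl and at 11.75 and 7.65 TPM in PRC1cKO, with a log2 fold change of 1.66 ± 0.23 (SE; adjusted p = 0.0041, limma). The level in PRC1cKO overlapped with that of WT Aundiff and lay far below that of WT Adiff. Dmrt1 was at 349.29 and 398.85 TPM against 423.58 and 441.04 TPM (0.21 ± 0.11, SE; adjusted p = 0.199, limma).

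Sall1 was at 29.45 and 37.37 TPM in PRC1ctrl and at 8.90 and 11.31 TPM in PRC1cKO, a log2 fold change of -1.63 ± 0.18 (SE; adjusted p = 0.00261, limma). Neurog3 was at 37.30 and 48.87 TPM against 17.84 and 20.81 TPM, a log2 fold change of -1.11 ± 0.17 (SE; adjusted p = 0.00487, limma). Neurog3 lay near the fold threshold: its log2 fold change was -0.87 after median-of-ratios scaling, -0.84 after quantile normalization and -0.92 without PRC1ctrl replicate 2, and over all 12 libraries it stayed at -1.11 with an adjusted p of 0.245 (limma). Sox3, the other factor of progenitors, was at 177.03 and 246.09 TPM against 193.18 and 211.29 TPM, with both PRC1cKO libraries inside the range of PRC1ctrl (-0.05 ± 0.17, SE; adjusted p = 0.859, limma).

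Sohlh2 was at 80.86 and 82.99 TPM in PRC1ctrl and at 119.18 and 121.74 TPM in PRC1cKO. The replicates were close and the groups did not overlap, and the log2 difference of 0.55 ± 0.10 (SE) passed the p threshold (adjusted p = 0.00967, limma) but not that on fold. Sohlh1 was at 371.16 and 398.30 TPM against 361.37 and 397.06 TPM (-0.02 ± 0.11, SE; adjusted p = 0.902, limma). Taf4b was at 55.17 and 50.63 TPM in PRC1ctrl and at 39.74 and 40.63 TPM in PRC1cKO, a log2 difference of -0.39 ± 0.12 (SE; adjusted p = 0.0436, limma) that was also under the fold threshold.

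**Figure D3:**
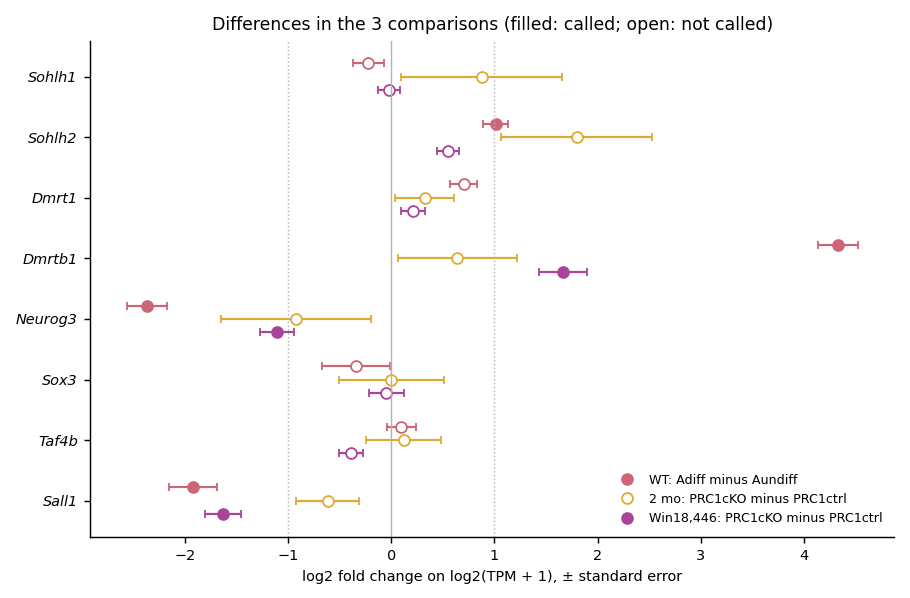
Difference in log2(TPM + 1) for each of the 8 genes (horizontal axis, ± standard error) in WT (Adiff minus Aundiff), at 2 mo and in Win (both PRC1cKO minus PRC1ctrl). Filled points were called and open points were not, and dotted lines mark the fold threshold. Dmrtb1 is called higher at 4.33 in WT and 1.66 in Win, Sall1 is called lower at -1.92 and -1.63, and no point of 2 mo is filled.

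In Win none of 13 factors of undifferentiated spermatogonia was called by limma and 5 had an unadjusted p under 0.05, against 44.3% of all genes. Zbtb16 (-0.78, adjusted p = 0.0146, limma) and Pou5f1 (-0.81, adjusted p = 0.00422, limma) passed the threshold on adjusted p but not that on fold. So did Foxo1 (-0.43, adjusted p = 0.0252, limma) and Lhx1 (-0.68, adjusted p = 0.0394, limma), the latter at no more than 1.09 TPM. Of 10 genes of differentiation, Kit (1.42, from 6.48 and 8.15 to 20.35 and 21.96 TPM) and Esx1 (1.38, from 19.59 and 25.50 to 58.26 and 61.31 TPM) were called higher and none lower, against 1.27% of all genes called higher. The median of the 10 was -0.07, against -0.19 over all genes. Crabp1 (0.65) and Tcea3 (0.99), higher, and Rarg (-0.66) and Rec8 (-0.64), lower, passed the threshold on adjusted p but not that on fold. Stra8, a direct target of retinoic acid, was at 10.73 and 12.43 TPM in PRC1ctrl and at 7.91 and 7.90 TPM in PRC1cKO. It was lower (-0.50, adjusted p = 0.0460, limma) and likewise passed the threshold on adjusted p but not that on fold.

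Among relatives in Win, Sox13 fell from 84.16 and 108.94 to 33.88 and 41.87 TPM (-1.32, adjusted p = 0.00324, limma), the single call of 14 SOX genes. Taf4 fell from 27.89 and 30.62 to 8.63 and 10.05 TPM (-1.55, adjusted p = 0.00199, limma), the single call of 17 TFIID subunits. Its direction was opposite to that in WT, where Taf4 rose from Aundiff to Adiff. Id1, an inhibitor of bHLH factors, rose from 5.52 and 5.45 to 13.79 and 11.76 TPM (1.08, adjusted p = 0.00422, limma), the single call of 15 genes on its list. None of 9 other DM-domain genes and 3 other SALL genes was called by limma, and 3 of each had an unadjusted p under 0.05, against 44.3% of all genes.

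Whether the difference between labels itself differed between 2 mo and Win was tested with an interaction term over the 8 libraries of the PRC1 mice. None of the 8 genes was called by limma, against 7.74% of 18354 genes (2.76% higher and 4.98% lower). The single gene of the 8 with an unadjusted p under 0.05, against 24.7% of all genes, was Sall1, whose difference was 1.02 ± 0.34 (SE) lower in Win than at 2 mo on the log2(TPM + 1) scale (adjusted p = 0.128, limma). At 2 mo Sall1 lay at or near 1 TPM, where the scale compresses differences. The other 7 genes had adjusted p-values of 0.345 to 0.968 (limma). Treatment and library method changed together in this contrast and cannot be told apart.

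Within each library, the ratio of a gene to its relative does not depend on the scaling of that library. These ratios were chosen after the values of the genes had been seen and are given with no test. Sohlh2 was at 0.372 and 0.287 of the TPM of Sohlh1 in WT Aundiff and at 0.846 and 0.708 in WT Adiff. At 2 mo the ratio was 0.574 and 0.464 in PRC1ctrl and 0.993 and 1.03 in PRC1cKO, and in Win it was 0.218 and 0.208 against 0.330 and 0.307. The ratio was thus higher in Adiff than in Aundiff and higher under PRC1cKO than under PRC1ctrl in every pairing of libraries, by 1.24 (WT), 0.97 (2 mo) and 0.58 (Win) on the log2 scale. Leaving out any library kept these between 1.06 and 1.43, 0.81 and 1.12, and 0.53 and 0.63. The transcript of Sohlh1 is richer in GC than that of Sohlh2, so the ratio cannot be compared between library methods.

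Dmrtb1 was at 0.0186 and 0.0231 of the TPM of Dmrt1 in WT Aundiff and at 0.283 and 0.297 in WT Adiff, 3.81 higher on the log2 scale. In Win it was at 0.00570 and 0.00672 in PRC1ctrl and at 0.0277 and 0.0173 in PRC1cKO, 1.83 higher, with no overlap. At 2 mo it was at 0.00671 and 0.0351 in PRC1ctrl and at 0.0249 and 0.0308 in PRC1cKO. There the PRC1cKO libraries lay inside the range of PRC1ctrl, and the log2 difference of 0.85 turned to -0.34 without PRC1ctrl replicate 1.

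**Figure D4:**
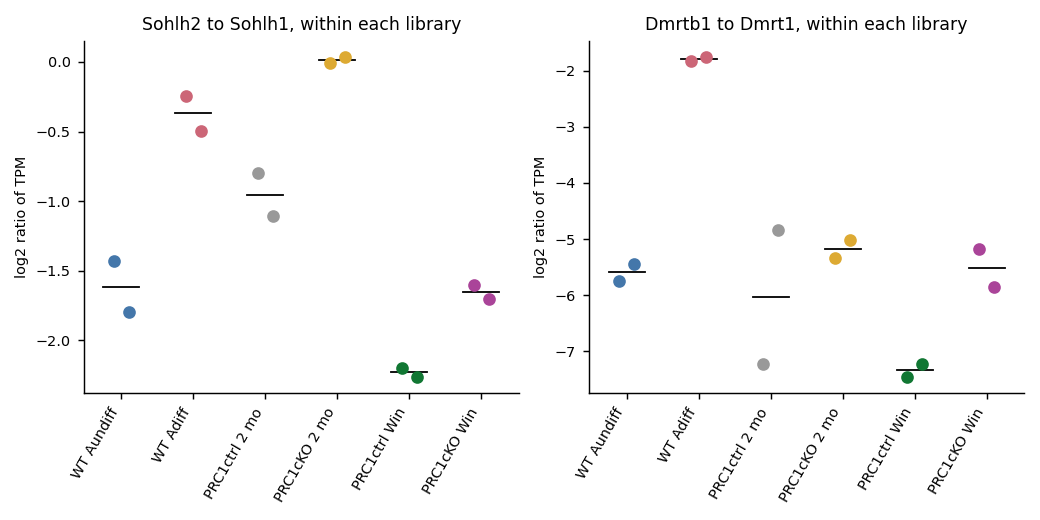
Log2 ratio of the TPM of Sohlh2 to Sohlh1 (left) and of Dmrtb1 to Dmrt1 (right) in each of the 12 libraries, with lines at group means. The Sohlh2 to Sohlh1 ratio does not overlap between Aundiff and Adiff or between the labels at 2 mo or in Win, and that of Dmrtb1 to Dmrt1 overlaps between the labels at 2 mo.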

How the data were processed

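RNA-seq of 12 libraries in 6 groups of 2 was examined. The authors trimmed reads with Trim Galore 0.6.6, aligned them with HISAT2 2.2.1 to GRCm38 and computed the deposited TPM values with RSEM 1.3.3. Their own differential expression used read counts, which were not used here. TPM carries no depth, so precision was taken from the 2 libraries of a group. Values were transformed to log2(TPM + 1), and genes with at least 1 TPM in at least 2 libraries of a fit were tested with limma 3.58.1 in R 4.3.3 (trend and robust moderation, two-sided), with Benjamini-Hochberg adjustment over all genes. Fits included only the groups compared. The procedure was tested on simulated data. Transcript GC and positions were read from GENCODE M21, whose gene coordinates matched the table for the 8 genes, and promoters from RefSeq. Figures were drawn with matplotlib 3.10.9. The 8 genes, the gene lists and the tests were chosen with earlier results of these data known. Named were the 8 genes, Rnf2 and Ring1, called genes of each list (up to the 4 with the largest change) and, for each of the 8, the 3 genes with the highest correlation over 12 libraries among those with a mean of at least 5 TPM. Other list genes are named as examples after their values were seen. Alternatives were a pseudocount of 0.1, moderation without trend or robust options, no filter, a mean of at least 5 TPM, quantile normalization, median-of-ratios scaling, all 12 libraries in a fit, the replicate number as a block, and leaving out each library. A correction for transcript GC in 20 bins was added after seeing the data.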

Additional observations from a re-analysis of the deposited data

How the results depend on the processing

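Dmrtb1 and Sall1 (WT and Win) and Neurog3 (WT) were called under each alternative run. In WT, 1 gene in place of 2 was called higher after median-of-ratios scaling, quantile normalization, a fit over all 12 libraries and the GC correction (with or without the block), and 1 to 2 when a library was left out; the gene lost was Sohlh2, over 12 libraries through its p alone. In Win, 1 in place of 2 was called lower after both scalings and over 12 libraries, and 1 to 2 when a library was left out; the gene lost was Neurog3, over 12 libraries through its p alone. With 2 pairs of libraries, the log2 difference of replicate 1 minus replicate 2 was correlated over genes between the groups compared. This correlation was 0.158 (WT), 0.381 (2 mo) and 0.122 (Win), and no source says that a number marks a shared batch. With the replicate number as a block, 1 gene in place of 0 was called higher at 2 mo, Sohlh2 (adjusted p = 7.65e-05, limma), also with the GC correction (0.00168); in WT and Win the block alone changed no call of the 8 genes.

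Over all genes at 2 mo, 301 calls became 0 without a filter, 96 at a mean of 5 TPM, 914 and 702 after median-of-ratios scaling and quantile normalization, 2172 with the block, 1624 over 12 libraries, 956 with the GC correction and 1630 with both, and 78 to 168 when a library was left out. In Win, 2017 calls became 955 at a mean of 5 TPM and 1189 to 2120 when a library was left out. For the interaction, 1420 calls became 469 with a pseudocount of 0.1, 787 without a filter, 176 at a mean of 5 TPM and 21 to 1436 when a library was left out. The cause was not tested.

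Directions turned only for genes that were not called. After median-of-ratios scaling, Taf4b was at -0.071 in WT and -0.18 at 2 mo, Sox3 at -0.17 at 2 mo and 0.20 in Win, and Sohlh1 at 0.22 in Win, while in the interaction Dmrt1 was at 0.60, Neurog3 at 0.66, Sox3 at 0.52 and Taf4b at 0.18. After quantile normalization, Taf4b was at -0.10 in WT and -0.075 at 2 mo, Sox3 at -0.033 at 2 mo, and Neurog3 and Sox3 at 0.28 and 0.018 in the interaction. After the GC correction, with or without the block, Sox3 and Taf4b were at -0.46 and -0.015 at 2 mo, Sohlh1 at 0.059 in Win, and Dmrt1, Neurog3 and Sox3 at 0.24, 0.16 and 0.26 in the interaction. With a pseudocount of 0.1, Neurog3 was at 0.87 in the interaction. Leaving out a library gave, in WT, -0.74 to 0.059 for Sox3. At 2 mo it gave -0.058 to 1.81 for Sohlh1, -0.034 to 1.31 for Dmrtb1, -1.90 to 0.058 for Neurog3, -0.50 to 0.36 for Sox3, -0.027 to 0.27 for Taf4b and -0.34 to 2.04 for the Dmrtb1 to Dmrt1 ratio. In Win it gave -0.089 to 0.046 for Sohlh1 and -0.28 to 0.19 for Sox3. In the interaction it gave -1.83 to 0.037 for Sohlh1, -0.33 to 0.11 for Dmrt1, -1.17 to 0.80 for Neurog3 and -0.55 to 0.46 for Sox3. Because groups hold 2 libraries and read depth is unknown, the lack of a call for members near 1 TPM at 2 mo does not show that a difference was absent.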

Other observations

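For each of the 8 genes, the 3 genes whose log2(TPM + 1) correlated most highly with it were taken from 10991 genes. These are descriptions over 12 libraries, which share a library method in blocks of 8 and 4, and over the 8 TruSeq libraries alone. For Dmrtb1 they were Sin3b (Pearson r 0.989 over 12 libraries and 0.991 over 8), a corepressor subunit, Plk5 (0.979 and 0.984) and the bHLH gene Ascl2 (0.954 and 0.976). For Sall1 they were Pik3cd (0.991 and 0.976), Sema4b (0.985 and 0.988) and Aff1 (0.983 and 0.940). For Neurog3 they were Rasa3 (0.983 and 0.987), Btnl7-ps (0.981 and 0.992) and Syn2 (0.980 and 0.962).

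For Sox3, Sohlh1, Dmrt1, Sohlh2 and Taf4b, each of the closest genes had a lower correlation over 8 libraries than over 12. Sox3 was most like Sesn2 (0.999 and 0.919), Adap1 (0.998 and 0.884) and Trabd (0.998 and 0.938), and Sohlh1 most like Angptl4 (0.994 and 0.941), Nudt9 (0.994 and 0.931) and Gmppa (0.991 and 0.862). For Dmrt1 the closest genes were Plbd2 (0.999 over 12 and 0.983 over 8), Hps6 (0.998 and 0.978) and C1ql1 (0.998 and 0.952). For Sohlh2 they were Diablo (0.990 and 0.936), Tgoln1 (0.988 and 0.913) and Dnpep (0.987 and 0.916). For Taf4b they were Abl1 (0.995 and 0.903), Focad (0.995 and 0.960) and Kifc2 (0.994 and 0.931).

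Among the 8 genes themselves, the pair with the highest correlation over the TruSeq libraries was Sohlh2 and Dmrt1 (0.933), followed by Sohlh2 and Dmrtb1 (0.910) and by Neurog3 and Sall1 (0.907). Dmrtb1 and Neurog3 were at -0.984 and Sohlh2 and Sall1 at -0.965. Sohlh1 and Sohlh2 were at 0.856 over 12 libraries but at -0.464 over 8.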
